A study of Mus musculus with 6 samples.

Results

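Chromatin accessibility at 10 genes of fatty acid uptake and oxidation was compared between 3 Prr14-KO and 3 Prr14-WT libraries of mouse quadriceps femoris, a thigh muscle. The genes were Lpl, Angptl4, Cd36, Fabp3, Cpt1b, Acadm, Acadl, Ppard, Pdk4 and Ucp3, and every peak whose deposited gene name was one of them was taken. This gave 63 of the 75134 peaks of the table, and all 63 passed the filter on low counts. Of these, 18 carried a deposited promoter class (within 1 kb, 1 to 2 kb or 2 to 3 kb) and 45 did not and are called distal: 19 intronic, 19 intergenic, 4 exonic and 3 at 3' untranslated regions. The gene of a distal peak is the one the deposited annotation names, which need not be the gene the peak lies in.

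The assay was ATAC-seq: a transposase cuts open chromatin and leaves sequencing adapters at the cut. Per the labels, the nuclei came from snap-frozen muscle of Prr14-KO mice (replicates 4, 5 and 7) and of Prr14-WT mice (replicates 3, 4 and 8). The sources used here do not give the age, sex or strain, the deleted part of Prr14, or whether each library is a separate animal. P-values therefore measure the spread between libraries, some of which may be technical. PRR14 is a protein of the nuclear lamina that tethers heterochromatin, and the title of the series asks about its part in myofibre identity.

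Muscle fibres burn fatty acids that reach them from circulating lipoproteins and from adipose tissue. Lipoprotein lipase releases them in the capillary, membrane and cytosolic carriers bring them to the mitochondrion, carnitine carries them across its membranes, and acyl-CoA dehydrogenases open each round of beta-oxidation. The nuclear receptors of the PPAR family sense fatty acids and switch on many of these genes, and slow and oxidative fibres use the pathway more than the fastest glycolytic fibres.

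Total counts in peaks ran from 9346968 to 12061822 in the KO libraries and from 7608514 to 11575061 in the WT libraries. Levels are given as CPM, counts scaled to 1000000 per library after correction with TMM factors, a peak was called at an adjusted p below 0.05 over all 73896 tested peaks, and fold changes are KO over WT. As markers of the tissue, all 8 skeletal muscle fibre genes listed (Acta1, Ckm, Myh4, Tnnt3, Mylpf, Des, Ryr1 and Cacna1s) had a tested promoter peak. Their summed level was 815 to 892 CPM in KO and 741 to 1130 CPM in WT libraries, and 1 of them, Myh4, a fast myosin heavy chain, fell in KO (37.6 ± 4.27 CPM in KO and 79.2 ± 24.0 CPM in WT, SD, n = 3 each; log2 fold change -1.08, SE 0.18, adjusted p = 3.95e-07). Myh4 gave -0.91 and an adjusted p of 0.104 with the authors' library factors, and passed under the other alternatives.

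Across the 10 genes, 1 of 18 promoter peaks was called higher in KO (the table's rate for promoter peaks was 1.58%) and 0 were called lower (1.49%). Of the 45 distal peaks 0 were called higher (3.14%) and 1 was called lower (5.08%). The higher peak belonged to Angptl4 and the lower one to Pdk4. Counts of 1 and 1 are too small to set apart from those rates. Of the 18 promoter peaks, 6 with a positive and 1 with a negative fold change had an unadjusted edgeR p below 0.05. Of the 45 distal peaks, 3 with a positive and 3 with a negative fold change had one. In the whole table, 9.24% of promoter and 19.4% of distal peaks had one in either direction. These shares were not tested against each other, and peaks of 1 gene are not independent. DESeq2 and limma-voom also called 0 promoter peaks lower and 0 distal peaks higher. The median log2 fold change was 0.08 over the 18 promoter peaks and -0.01 over the 45 distal peaks, beside 0.06 over all tested promoter peaks and -0.05 over all tested distal peaks.

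**Figure D1:**
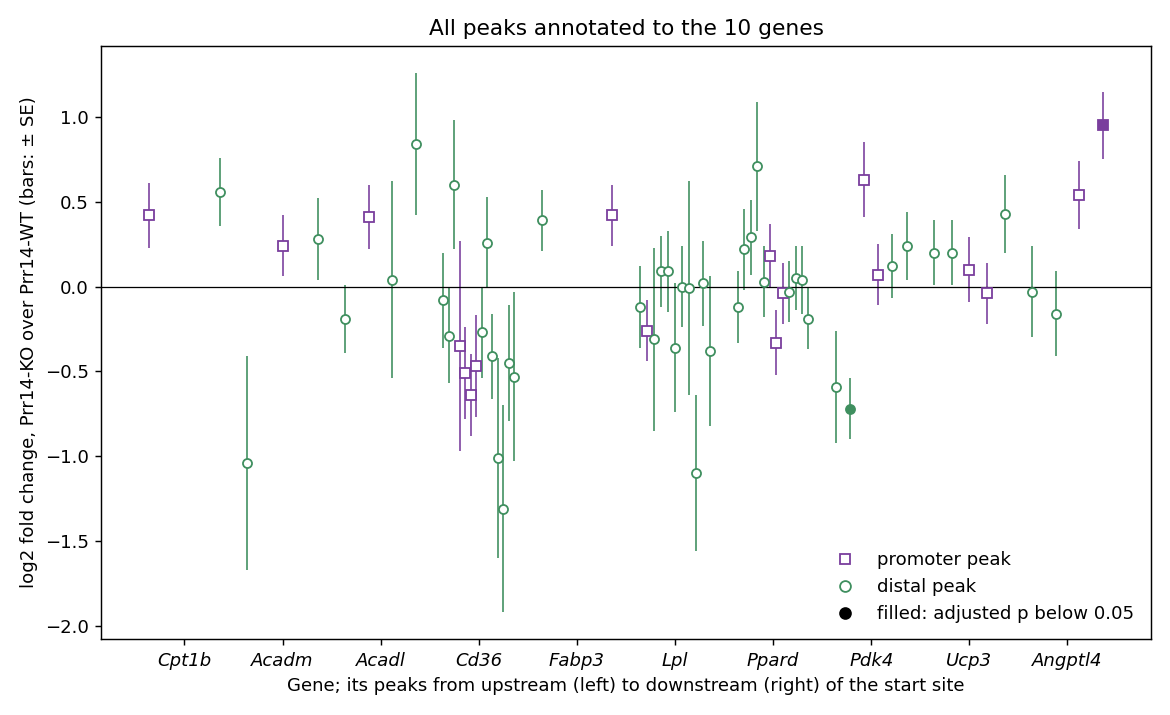
log2 fold change of KO over WT (y axis, bars ± SE) for the 63 peaks, grouped by gene and ordered from upstream to downstream of the start site; squares are promoter peaks, circles distal peaks, and filled symbols passed an adjusted p of 0.05. The filled symbols are 1 Angptl4 promoter peak at 0.95 and 1 Pdk4 distal peak at -0.72, and 12 of the 14 Cd36 peaks lie below 0.

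Angptl4 (ENSMUSG00000002289) encodes a secreted inhibitor of lipoprotein lipase and is a known PPAR target. Its second promoter peak, inside the gene (chromosome 17, 33779007 to 33779959, GRCm38, deposited distance 2060 bases downstream of the start site, class 1 to 2 kb), had 22.8, 28.0 and 33.4 CPM in KO libraries 4, 5 and 7, against 15.8, 12.8 and 15.1 CPM in WT libraries 3, 4 and 8. All KO libraries lay above all WT libraries. The peak rose 1.93-fold in KO (28.1 ± 5.31 CPM in KO and 14.6 ± 1.60 CPM in WT, SD, n = 3 each; log2 fold change 0.95, SE 0.20, adjusted p = 1.46e-04). It was the only one of the 63 peaks that passed under every one of the 13 alternative settings, with adjusted p from 6.58e-05 to 0.0157.

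The Angptl4 peak over the start site itself (33780952 to 33781938) had 20.4, 22.9 and 25.0 CPM in KO and 18.3, 13.4 and 15.3 CPM in WT. The groups again did not overlap, but the difference did not pass (log2 fold change 0.54, SE 0.20, adjusted p = 0.0864); it passed with scaling by total counts alone (0.0455). Upstream of the gene the groups overlapped. At the intergenic peak 7134 bases upstream, KO had 5.12 to 9.80 CPM and WT 6.59 to 10.1 CPM (log2 fold change -0.16, SE 0.25), and the peak 12365 bases upstream gave -0.03 (SE 0.27).

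A ratio of 2 peaks within 1 library does not depend on how libraries are scaled. Of the counts, the log2 ratio of the inner Angptl4 peak to the start-site peak was 0.16, 0.29 and 0.42 in KO libraries and -0.21, -0.07 and -0.01 in WT libraries. By raw counts the inner peak was the larger of the pair in every KO library and the smaller in every WT library. In WT the 2 peaks were close, with 115 against 116 counts in replicate 8 and 139 against 146 in replicate 4. The ratios were not corrected for peak width (953 and 987 bases), so which peak is larger in WT is not settled. The difference in mean log2 ratio was 0.39 (0.29 ± 0.13 in KO and -0.10 ± 0.10 in WT, SD, n = 3 each; exact permutation test, two-sided, p = 0.1, the smallest 3 against 3 can give, and 0.133 adjusted over 4 ratios). These ratios were chosen after the peaks' values were seen.

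Pdk4 (ENSMUSG00000019577) encodes a kinase that turns off pyruvate dehydrogenase and so favours fat over glucose as fuel. An intergenic peak 13407 bases upstream of it (chromosome 6, 5508974 to 5510458) had 25.1, 26.7 and 30.5 CPM in KO and 42.4, 57.2 and 35.8 CPM in WT. Every KO library lay below every WT library. The peak fell in KO by 0.72 on the log2 scale (27.4 ± 2.77 CPM in KO and 45.1 ± 11.0 CPM in WT, SD, n = 3 each; SE 0.18, adjusted p = 0.00309). The call was lost without WT replicate 4, the highest library (-0.48 with an adjusted p of 0.0968). It was also lost without KO replicate 5 (-0.67 with an adjusted p of 0.0829) and with the authors' library factors (-0.54 with an adjusted p of 0.492).

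The start-site promoter peak of Pdk4 (5495939 to 5497513) had 61.9, 71.8 and 81.7 CPM in KO and 69.0, 72.9 and 63.4 CPM in WT, so the groups overlapped (log2 fold change 0.07, SE 0.18, adjusted p = 0.914). A promoter-class peak 2588 bases upstream (5498671 to 5499123), named after its values were seen, had 14.1, 14.4 and 15.4 CPM in KO and 6.48, 9.57 and 12.5 CPM in WT. Here all KO libraries lay above all WT libraries, the opposite order to the peak 13407 bases upstream. The difference did not pass (log2 fold change 0.63, SE 0.22, adjusted p = 0.0622), though it did in limma-voom, with total counts, with no filter and without WT replicate 8.

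Between these 2 upstream peaks of Pdk4, the log2 ratio of the nearer to the farther one was -0.83, -0.89 and -0.99 in KO and -2.71, -2.58 and -1.52 in WT. The difference in mean was 1.37 (-0.90 ± 0.08 in KO and -2.27 ± 0.65 in WT, SD, n = 3 each). The exact permutation test gave p = 0.1, the smallest 3 against 3 can give, and 0.133 adjusted over 4 ratios. These 2 peaks were paired after their values were seen, with groups apart in opposite directions. Full separation of their ratio, and so that p, was fixed beforehand and adds no support. Relative to the start-site peak, the farther peak differed by -0.76 (exact permutation p = 0.1, adjusted 0.133) and the nearer one by 0.61 (exact permutation p = 0.2, adjusted 0.2). A peak 93481 bases upstream also had all KO libraries (3.03 to 3.48 CPM) below all WT libraries (3.55 to 5.89 CPM) without passing (log2 fold change -0.59, SE 0.33, adjusted p = 0.377). The peaks at the 3' untranslated region and beyond the gene's end gave 0.12 and 0.24.

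**Figure D2:**
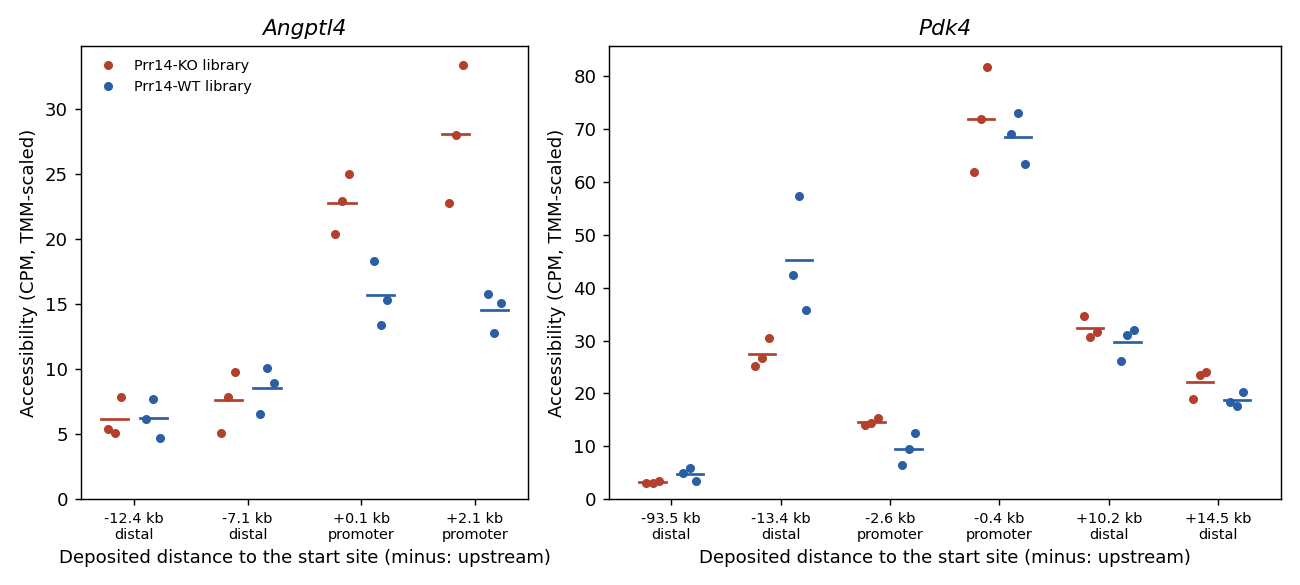
Accessibility in CPM (y axis, from 0) of every peak annotated to Angptl4 (left) and Pdk4 (right), ordered by the deposited distance to the start site; dots are libraries and bars group means, KO left of WT. KO libraries lie above WT libraries at the 2 Angptl4 promoter peaks and at the Pdk4 peak 2588 bases upstream, and below them at the Pdk4 peaks 13407 and 93481 bases upstream.

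The promoter window of Pdk4 (chr6:5496229-5496528, minus strand) lies within the start-site peak whose groups overlapped. That of Cd36 (chr5:17835847-17836146, minus strand) lies in a promoter peak that was lower in every KO library without passing. Both are shown as examples, from RefSeq on GRCm38.p6. Of the 10 genes 7 had such a window, each within a promoter peak of its gene, and Angptl4, Cpt1b and Lpl had none. The called peaks of Angptl4 and Pdk4 lie in no window, so the motif counts below do not cover them. Capitals mark the hexamer that nuclear receptors bind, AGGTCA on either strand, and the single capital at position 251 is the annotated start.
Pdk4: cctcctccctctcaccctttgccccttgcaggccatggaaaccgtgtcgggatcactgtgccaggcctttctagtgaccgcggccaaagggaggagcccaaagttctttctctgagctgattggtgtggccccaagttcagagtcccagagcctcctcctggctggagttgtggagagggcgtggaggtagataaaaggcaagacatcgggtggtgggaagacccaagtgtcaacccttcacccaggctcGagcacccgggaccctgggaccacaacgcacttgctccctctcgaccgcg
Cd36: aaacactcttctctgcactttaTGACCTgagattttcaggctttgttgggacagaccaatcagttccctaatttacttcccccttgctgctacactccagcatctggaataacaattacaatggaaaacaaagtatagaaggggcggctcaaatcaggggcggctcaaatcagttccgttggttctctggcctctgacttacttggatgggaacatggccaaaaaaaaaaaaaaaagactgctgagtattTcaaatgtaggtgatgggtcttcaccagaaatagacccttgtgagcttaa
The hexamer occurred once in the windows of Cd36 and Acadm, 2 times in that of Ucp3 and 0 times in those of Pdk4, Acadl, Fabp3 and Ppard; 16.3% of all 32851 promoter windows of this length hold it. The PPAR and RXR site, a direct repeat of the hexamer with 1 base between (0.0396% of windows), the oestrogen-related receptor site TCAAGGTCA (0.423%) and the MEF2 consensus (3.19%) were in 0 of the 7 windows. The E-box CANNTG was in all 7, beside 72.3% of all windows. Both strands were searched, the hexamer is contained in the longer receptor motifs, and a match of letters is no sign of binding.

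Lpl (ENSMUSG00000015568), the lipase that frees fatty acids from lipoproteins, had 11 peaks, of which 0 passed in edgeR, DESeq2 or limma-voom and 1 had an unadjusted edgeR p below 0.05. Its start-site peak (chromosome 8, 68880197 to 68883277) had 49.1, 46.9 and 56.3 CPM in KO and 47.3, 68.0 and 67.3 CPM in WT, with overlapping groups (log2 fold change -0.26, SE 0.18, adjusted p = 0.507). The smallest p of the gene was at a weak intergenic peak 84734 bases downstream of its start site (68965061 to 68965516), with 1.99, 1.23 and 1.56 CPM in KO and 1.13, 4.60 and 4.48 CPM in WT. WT replicate 3 lay below all KO libraries there; the peak gave -1.10 (SE 0.46, adjusted p = 0.153) and passed without that library (-1.50, adjusted p = 0.0380).

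Cd36 (ENSMUSG00000002944), the membrane carrier of fatty acids, had the most peaks, 14, and 12 of them had a negative fold change. That count was not tested, and the median log2 fold change over all tested peaks was 0.06 at promoters and -0.05 at distal peaks. None of the 14 passed by edgeR, DESeq2 or limma-voom, and 2 had an unadjusted edgeR p below 0.05. The promoter peak nearest a start site (chromosome 5, 17848256 to 17850771) had 8.68, 6.25 and 8.06 CPM in KO and 9.26, 10.9 and 15.7 CPM in WT. All KO libraries lay below all WT libraries, as at 2 other Cd36 peaks, but the difference did not pass (log2 fold change -0.64, SE 0.24, adjusted p = 0.0803). A second promoter peak, which holds the window printed above (17835722 to 17836821), had 4.70, 4.77 and 6.50 CPM in KO and 7.31, 8.01 and 7.37 CPM in WT (-0.51, SE 0.27, adjusted p = 0.323). Summed over its 4 promoter peaks, Cd36 had 20.5, 15.5 and 19.3 CPM in KO and 22.6, 28.3 and 29.5 CPM in WT. The peaks of 1 gene share libraries and are not independent, and the peak assigned from 115400 bases away lies in a Sema3c intron.

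Cd36 is also active in adipocytes, capillary endothelium and macrophages, and Lpl also in adipocytes. Of 7 adipocyte markers, 4 had a tested promoter peak, with a summed level of 17.9 to 26.0 CPM in KO and 16.0 to 23.8 CPM in WT; 0 were called, and Adipoq, Cfd and Retn had no tested promoter peak. Of 8 endothelial markers 6 had one (59.1 to 82.7 CPM in KO, 48.8 to 79.8 CPM in WT), and 1, Cldn5, rose (log2 fold change 0.71, SE 0.19, adjusted p = 0.00594). That call was lost without KO replicate 5 (0.50, adjusted p = 0.313), without WT replicate 4 (0.58, adjusted p = 0.0627) and with the authors' factors (0.96, adjusted p = 0.0768). Of 6 macrophage markers 2 had one (12.0 to 17.8 CPM in KO, 15.9 to 20.2 CPM in WT) and of 5 fibro-adipogenic markers all 5 (62.6 to 79.6 CPM in KO, 55.6 to 78.3 CPM in WT), with 0 called in both. In the adipocyte, macrophage and fibro-adipogenic lists 0 peaks had an unadjusted edgeR p below 0.05. The part of these cells in the results was not tested. In bulk tissue, fewer nuclei of a type and less open chromatin per nucleus cannot be told apart.

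Fabp3 (ENSMUSG00000028773), the cytosolic fatty acid carrier of heart and muscle, had 2 peaks. The start-site promoter peak (chromosome 4, 130306790 to 130309397) had 73.2, 63.6 and 60.6 CPM in KO and 39.6, 61.8 and 45.7 CPM in WT, where WT replicate 4 reached into the KO range. The difference was 0.42 in log2 (SE 0.18, adjusted p = 0.157), and it passed without WT replicate 4 (0.65, adjusted p = 0.0105). An intergenic peak 9036 bases upstream had 46.9, 53.2 and 43.0 CPM in KO and 35.9, 42.1 and 31.3 CPM in WT, with no overlap (0.39, SE 0.18, adjusted p = 0.231). Both peaks overlap the RefSeq span of the neighbouring gene Gm10570, so they cannot be given to Fabp3 alone.

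Peaks within or near the 10 genes but annotated to others numbered 51 within 50 kb of their RefSeq spans. Of these, 3 overlapped the span itself, 1 each at Fabp3, Ppard and Ucp3. Their log2 fold changes were 0.27, 0.10 and 0.38, and none of them passed (adjusted p = 0.647, 0.881 and 0.363). Of the 51, 1 was called higher (2.77% of all tested peaks were) and 1 lower (4.23%). The higher one, named after its values were seen, lies downstream of Fabp3 (130318246 to 130319375, annotated to Gm10570, within the RefSeq span of Zcchc17). It had 32.8 ± 3.33 CPM in KO and 21.6 ± 6.32 CPM in WT (SD, n = 3 each; log2 fold change 0.59, SE 0.19, adjusted p = 0.0314), and the call was lost with DESeq2 (0.0535), with the authors' factors (0.215) and without KO replicate 4 (0.0737), KO replicate 5 (0.230), WT replicate 3 (0.152) or WT replicate 8 (0.112). The lower one, also named after its values were seen, was a promoter peak of Fance downstream of Ppard, 307 bases wide. It had 3.40 ± 1.49 CPM in KO and 7.74 ± 1.30 CPM in WT (SD, n = 3 each, log2 fold change -1.18, SE 0.29, adjusted p = 0.00173). That call was lost without KO replicate 4 (0.0794) and with the authors' factors (0.0683). The Fance promoter peak nearest its start site had 33.5 ± 3.47 CPM in KO and 34.3 ± 4.57 CPM in WT (-0.04, SE 0.18, adjusted p = 0.962).

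Cpt1b (ENSMUSG00000078937) encodes the muscle form of the carnitine palmitoyltransferase that admits long-chain fatty acids to the mitochondrion. Both of its peaks were more accessible in every KO library than in any WT library. The start-site peak (chromosome 15, 89425435 to 89426425) had 31.5, 30.5 and 31.1 CPM in KO and 24.5, 22.6 and 22.4 CPM in WT (log2 fold change 0.42, SE 0.19, adjusted p = 0.206). That peak also overlaps the neighbouring gene Chkb, so it cannot be given to Cpt1b alone. The peak over the 3' end of the gene (89415097 to 89416868) had 26.1, 27.7 and 21.6 CPM in KO and 16.9, 20.2 and 14.1 CPM in WT (0.56, SE 0.20, adjusted p = 0.0654). It missed the threshold with all libraries and TMM, and passed under 5 of the 13 alternatives, among them leaving out WT replicate 4 (0.72, adjusted p = 0.0145) or KO replicate 7 (0.68, adjusted p = 0.0356).

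**Figure D3:**
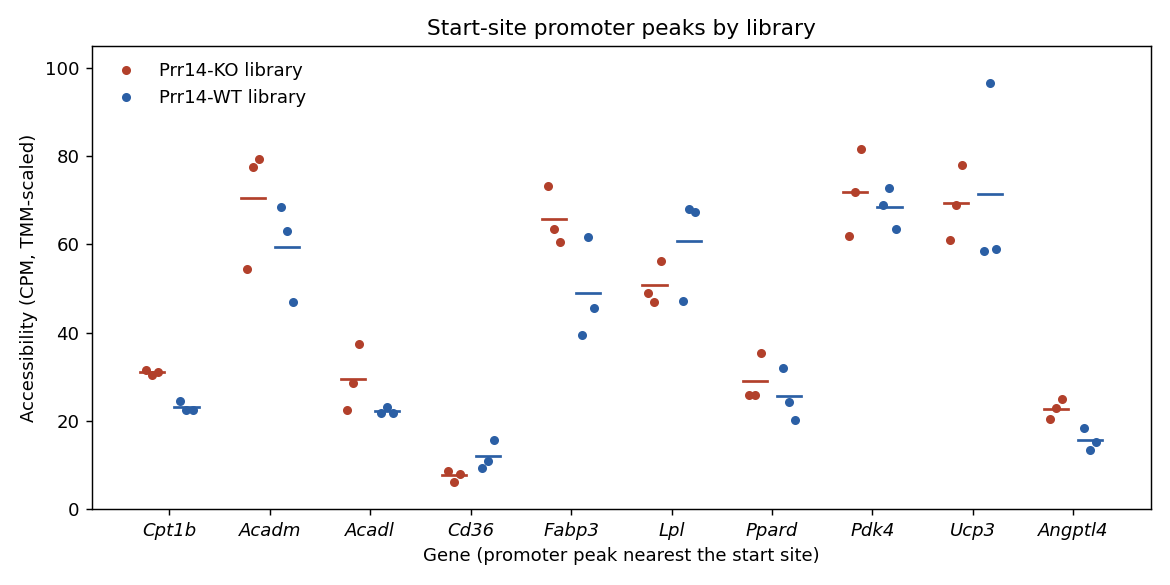
Accessibility in CPM (y axis, from 0) of the promoter peak nearest the start site of each of the 10 genes; dots are libraries and bars group means, KO left of WT. Groups are apart at Cpt1b and Angptl4 (KO above) and at Cd36 (KO below), and overlap at the other 7 genes.

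The same start-site peaks, set on 1 scale by dividing by peak width, were lowest at Cd36, with 3.04 CPM per kb in KO and 4.75 CPM per kb in WT. The 2 highest in both genotypes were Acadm (49.9 CPM per kb in KO and 42.1 CPM per kb in WT) and Pdk4 (45.6 in KO and 43.5 CPM per kb in WT), with Acadm above Pdk4 in KO and below it in WT. Between them and Cd36 lay Cpt1b (31.3 in KO and 23.4 CPM per kb in WT), Ppard (28.5 and 25.0 in KO and WT), Ucp3 (27.6 and 28.4), Fabp3 (25.2 and 18.8), Angptl4 (23.0 and 15.9), Acadl (21.9 and 16.5) and Lpl (16.5 and 19.8). Neighbours in this order were not tested against each other.

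Acadm (ENSMUSG00000062908) and Acadl (ENSMUSG00000026003) encode the medium-chain and long-chain acyl-CoA dehydrogenases. The start-site peak of Acadm (chromosome 3, 153943801 to 153945211) had 54.5, 77.5 and 79.4 CPM in KO and 68.4, 63.1 and 46.9 CPM in WT, with overlap (log2 fold change 0.24, SE 0.18, adjusted p = 0.548). Its smallest p was at a weak intergenic peak 11581 bases upstream (153956058 to 153956367), with 0.942 ± 0.680 CPM in KO and 1.91 ± 0.839 CPM in WT (SD, n = 3 each; -1.04, SE 0.63, adjusted p = 0.429). The start-site peak of Acadl (chromosome 1, 66862326 to 66863671) had 22.4, 28.6 and 37.4 CPM in KO and 21.8, 23.1 and 21.9 CPM in WT. The WT libraries lay close together and KO replicate 4 lay among them, and the difference did not pass (0.41, SE 0.19, adjusted p = 0.235). The other Acadl peaks gave -0.19 to 0.84, and none passed in edgeR, DESeq2 or limma-voom.

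Ppard (ENSMUSG00000002250) encodes the PPAR that drives fatty acid oxidation in muscle. It had 12 peaks, 3 at promoters, with log2 fold changes from -0.33 to 0.71 and a median of 0.04. Its start-site peak (chromosome 17, 28232340 to 28233361) had 25.8, 26.0 and 35.5 CPM in KO and 32.0, 24.4 and 20.3 CPM in WT (0.18, SE 0.19, adjusted p = 0.719). The groups overlapped at 11 of the 12 peaks. The exception was a weak intronic peak (28264229 to 28264511) with 3.87, 3.21 and 4.85 CPM in KO and 1.34, 2.94 and 3.03 CPM in WT (0.71, SE 0.38, adjusted p = 0.343). The sum over its 9 distal peaks was 174 ± 18.4 CPM in KO and 174 ± 23.4 CPM in WT (SD, n = 3 each).

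Ucp3 (ENSMUSG00000032942) encodes a mitochondrial carrier of skeletal muscle that rises with fatty acid supply. Its start-site peak (chromosome 7, 100472623 to 100475135) had 61.1, 69.0 and 78.1 CPM in KO and 58.5, 96.5 and 59.0 CPM in WT, with WT replicate 4 the highest library (-0.04, SE 0.18, adjusted p = 0.952). The sign of this value changed with the scaling and with the libraries used. The exonic peak 7183 bases downstream of the start site (100479754 to 100480598) had 10.9, 10.4 and 15.2 CPM in KO and 6.69, 7.82 and 12.9 CPM in WT (0.43, SE 0.23, adjusted p = 0.332), and passed without WT replicate 8 (0.79, adjusted p = 0.0363). Both intronic peaks assigned to Ucp3 lie in the neighbouring gene C2cd3, as the exonic peak 6591 bases upstream of Ppard lies in Def6.

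Over the 18 promoter peaks, KO libraries all lay above WT libraries at 4 (22.2%, beside 7.64% of all tested promoter peaks) and all below at 2 (11.1%, beside 5.38%). The 4 were the 2 at Angptl4, the Cpt1b start-site peak and the nearer upstream peak of Pdk4, and the 2 were both at Cd36. Over the 45 distal peaks the counts were 3 above (6.67%, beside 9.64%) and 4 below (8.89%, beside 12.9%). By gene, both Angptl4 promoter peaks and both Cpt1b peaks were above, 3 Cd36 peaks were below, and Pdk4 had 1 above and 2 below. The rest were distal: the Fabp3 peak at 130298898 and the Ppard peak at 28264229 were above, and a weak Lpl peak at 68914893 was below (log2 fold change -0.36, SE 0.38, adjusted p = 0.728).

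In the authors' deposited table, 6 of the 63 peaks had no adjusted p, and 1 of the other 57 had one below 0.05, the inner Angptl4 peak (log2 fold change 1.17, adjusted p = 0.00328), where 2.44% of peaks with an adjusted p were higher and 0.872% lower. For the Pdk4 peak 13407 bases upstream, the authors' deposited table gave -0.54 and an adjusted p of 0.424. With the authors' library factors in edgeR, 1621 peaks of the whole table were higher and 751 lower, against 2049 higher and 3128 lower with TMM. The authors' factors ran from 0.977 to 1.04, whereas median-ratio factors from the peak counts ran from 0.762 to 1.21. The SE of that Pdk4 peak was 0.32 with the authors' factors and 0.18 with TMM. The median log2 fold change over all peaks was 0.19 with the authors' factors and -0.01 with TMM. With the authors' factors, that of the 18 promoter peaks was 0.28 beside 0.26 for all promoter peaks.

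**Figure D4:**
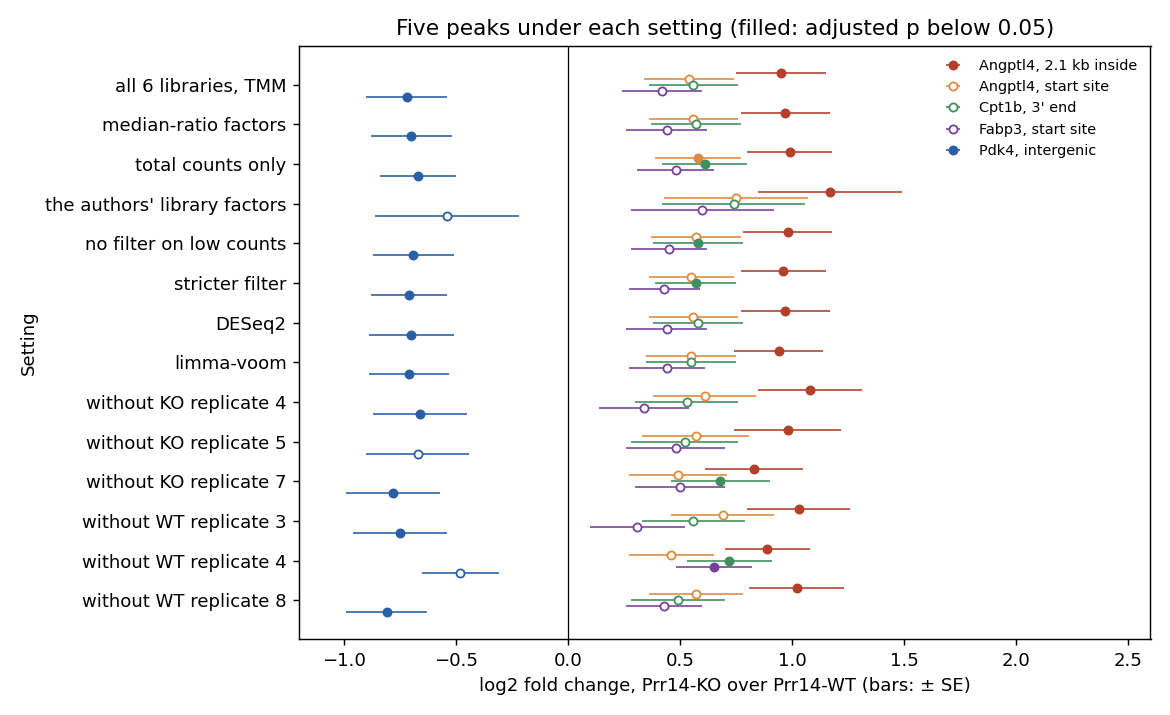
log2 fold change of KO over WT (x axis, bars ± SE) of 5 peaks under all 14 settings; filled symbols passed an adjusted p of 0.05. The inner Angptl4 peak is filled throughout, the Pdk4 peak 13407 bases upstream (Pdk4, intergenic) is open with the authors' library factors, without KO replicate 5 and without WT replicate 4, and the other 3 peaks are open under most settings.

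Further genes of the pathway were counted in the same way. The list held 61 further genes of fatty acid activation, transport, storage, oxidation and their regulators, of which 58 had a tested peak. Of 85 promoter peaks 2 were called higher and 0 lower, and 83 did not pass (background 1.58% and 1.49%). DESeq2 and limma-voom also called 0 lower. An unadjusted edgeR p below 0.05 was given by 7 with a positive and 2 with a negative fold change (9.24% of all promoter peaks, in either direction). Of 229 distal peaks 10 were called higher (4.37%, background 3.14%) and 17 lower (7.42%, background 5.08%), shares that were not tested against the background. Of the 17 lower ones, 6 were at 1 gene, Vldlr. The 10 higher distal calls became 3 with the authors' factors and 1 to 15 with a library left out. The medians were 0.12 over the promoter peaks and -0.01 over the distal ones, beside 0.06 and -0.05 over all peaks of each kind. The calls fell on 14 genes, 7 with higher peaks, 4 with lower peaks and 3 with both.

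Acaca, the cytosolic acetyl-CoA carboxylase, rose at a promoter-class peak 2823 bases downstream of the start site. That peak had 14.5, 22.1 and 10.2 CPM in KO and 6.48, 7.45 and 6.19 CPM in WT (log2 fold change 1.22, SE 0.23, adjusted p = 1.55e-05). Eci1, an enoyl-CoA isomerase for unsaturated fatty acids, rose at a promoter-class peak 2670 bases downstream, with 18.7, 28.6 and 23.8 CPM in KO and 10.8, 18.7 and 13.3 CPM in WT (0.73, SE 0.20, adjusted p = 0.00796). The Eci1 call was lost without KO replicate 5 (0.182), without WT replicate 3 (0.140) and with the authors' factors (0.0806). Cpt1a, the carnitine palmitoyltransferase of liver and many other tissues, had 2 of 3 peaks called higher, both intronic (0.64 and 0.59, adjusted p = 0.0330 and 0.0430). Both of these were lost without KO replicate 4, KO replicate 5 or WT replicate 3 and with the authors' factors, with adjusted p from 0.0782 to 0.258, and the second also without KO replicate 7 (0.164). Their log2 fold changes were 0.85 and 0.81 with the authors' factors, and 0.48 to 0.65 in these fits with a library left out.

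The lower peaks included larger changes. Acsl3, a long-chain acyl-CoA synthetase, fell at an intergenic peak 44597 bases upstream, with 4.18, 3.04 and 2.47 CPM in KO and 12.0, 14.0 and 12.9 CPM in WT (log2 fold change -2.01, SE 0.26, adjusted p = 2.12e-11). Vldlr, a lipoprotein receptor of muscle and heart, had 6 of 15 peaks called lower and 1 higher. All 6 lower peaks overlapped the RefSeq span of Gm35438. Except for the intronic one at 27222973, they lay clustered between 27167653 and 27188289, 29245 to 48825 bases upstream. Of the lower calls, the one at 27222973 was lost with the authors' factors (-0.73, adjusted p = 0.248), and the one at 27178128 with those factors (-0.85, adjusted p = 0.117) and without WT replicate 4 (-0.81, adjusted p = 0.0561). The higher call was lost with the authors' factors (0.85, adjusted p = 0.135) and without KO replicate 4, KO replicate 5, WT replicate 3 or WT replicate 8 (0.55 to 0.68, adjusted p = 0.0649 to 0.107). The Vldlr peak with the smallest p lay 43043 bases upstream, within the RefSeq span of Gm35438, with 9.41, 7.32 and 7.23 CPM in KO and 21.6, 34.0 and 14.7 CPM in WT (-1.57, SE 0.22, adjusted p = 2.29e-10).

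Acsl6, another long-chain acyl-CoA synthetase, fell at an exonic peak 6854 bases downstream, with 27.0, 29.5 and 25.1 CPM in KO and 43.5, 61.1 and 38.2 CPM in WT (log2 fold change -0.81, SE 0.18, adjusted p = 5.53e-04; 0.376 with the authors' factors). Ppargc1a, the coactivator of oxidative metabolism, had 21 tested peaks, of which 1 was called higher and 1 lower. An intronic peak 19152 bases downstream fell, with 13.7, 9.29 and 11.4 CPM in KO and 23.7, 34.9 and 19.6 CPM in WT (-1.19, SE 0.21, adjusted p = 1.06e-06). A peak 28056 bases upstream rose, with 18.1, 16.7 and 16.0 CPM in KO and 9.57, 10.2 and 11.5 CPM in WT (0.70, SE 0.22, adjusted p = 0.0220). That second call was lost without KO replicate 4 (0.122), KO replicate 5 (0.0811) or WT replicate 3 (0.104) and with the authors' factors (0.0841).

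**Figure D5:**
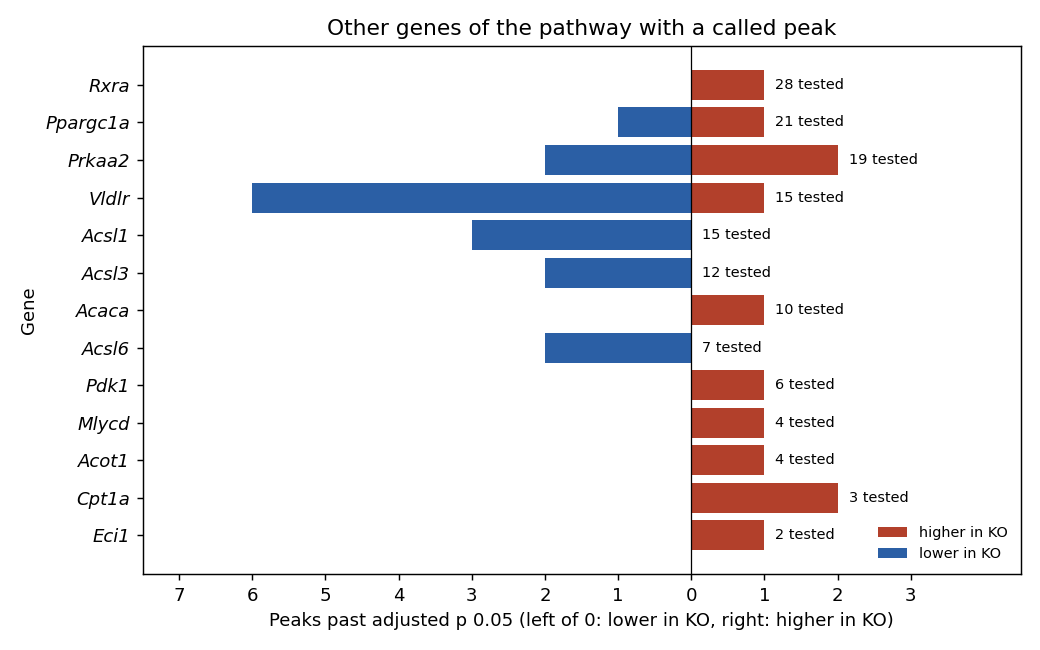
Number of called peaks per gene (x axis; right of 0 higher in KO, left of 0 lower in KO) for 13 further pathway genes with a call, with the number of tested peaks beside each bar. Vldlr has the most lower peaks, 6 of 15, and Prkaa2, Ppargc1a and Vldlr have calls in both directions, though all 4 Prkaa2 calls were lost with the authors' factors and without KO replicate 5.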

How the data were processed

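The 6 libraries of quadriceps femoris were compared, 3 per genotype. Per the submitters' processing notes, the build was GRCm38 and the tools were DESeq2 1.6.3, bedtools, deepTools, MACS2, BWA and Trimmomatic, with no role or order given. The sources used here do not give how reads were shifted, deduplicated and counted or how peaks were merged. The authors deposited whole-number counts per peak and library over 1 common peak list, and beside them a normalized signal equal to the count divided by 1 factor per library. Further deposited columns give, from the authors, the log2 fold change, p-value and adjusted p-value of each peak, a score that was not used, the gene, feature class and distance to the start site. Coordinates are as deposited.

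The test was edgeR's quasi-likelihood test on the counts as deposited (edgeR 4.0.16, R 4.3.3; TMM, filterByExpr with minimum count 10 and minimum total 15, two-sided, Benjamini-Hochberg over 73896 peaks), after a test on simulated data. SE is the log2 fold change divided by the square root of F. The common biological coefficient of variation was 0.201. Alternatives were other scalings, filters, DESeq2 1.42.0, limma-voom (limma 3.58.1), a 1 kb promoter and each library left out. The named peaks are each gene's promoter peak nearest the start site, every called peak, and otherwise its peak with the smallest p; of the further genes, those with a called promoter peak and the 6 with the smallest p, of which 1 is not reported here. Any other peak of these genes or their neighbours given with values lies outside this rule, whether or not it is marked as chosen after its values were seen. Cpt1a was also chosen after its values were seen. The members and lists were chosen with earlier results of these data known.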

Additional observations from a re-analysis of the deposited data

How the results depend on the processing

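Of the 17 named peaks of the 10 genes, 15 kept their direction under every alternative run for them; the stricter filter gave no value for the Acadm peak at 153956058 and the Lpl peak at 68965061, which it removed. The start-site peak of Pdk4 gave -0.01 without KO replicate 7 (-0.01 to 0.17 with any 1 library left out), and that of Ucp3 gave 0.01 with total counts, 0.14 with the authors' factors, 0.04 without KO replicate 4 and 0.27 without WT replicate 4 (-0.15 to 0.27 with any 1 library left out). Promoter peaks of the 10 genes called higher numbered 3 with total counts, 2 with no filter, 2 in limma-voom, 0 when promoters ended at 1 kb and 1 to 2 with a library left out. Distal peaks called higher numbered 1 with total counts, with no filter, with the stricter filter and with the 1 kb promoter, and 0 to 1 with a library left out. Distal peaks called lower numbered 0 with the authors' factors and 0 to 2 with a library left out. For the 61 further genes, promoter peaks called higher numbered 1 with the authors' factors, 0 with the 1 kb promoter and 1 to 3 with a library left out; distal peaks called higher numbered 3 with the authors' factors and 1 to 15 with a library left out, and lower ones 7 and 10 to 16. Over the whole table, higher calls ranged from 959 to 2248 with a library left out, and lower calls from 1409 to 3111, with 751 with the authors' factors. No paired analysis was possible because the genotypes share only replicate number 4. Peaks of few counts had wider errors, with an SE of 0.63 at that Acadm peak and 0.46 at that Lpl peak.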
